A study of Mus musculus with 2 samples.

Results

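The cells described here are amacrine cells, the inhibitory interneurons of the inner retina that release GABA or glycine, in a single-cell RNA sequencing study of diabetic and control mice. A cell entered if at least 5 of its UMIs (unique molecular identifiers, each standing for 1 captured RNA molecule) came from Gad1, Gad2, Slc32a1, Slc6a9, Tfap2a, Tfap2b, C1ql1 or C1ql2. It also needed at least 200 detected genes, at most 20% of UMIs from mitochondrial genes, under 1% of UMIs from a set of Müller glia genes, under 0.5% from a set of cone genes, and at most 2 UMIs of the ON bipolar genes Trpm1 and Grm6. The rule found 91 cells among the 21193 that passed the gene and mitochondrial limits (kept cells), out of 21391 barcodes: 15 cells in the db/db library and 76 in the wild-type (WT) library. A cell was called GABAergic where its UMIs of Gad1 and Gad2 together exceeded those of Slc6a9, and glycinergic where Slc6a9 exceeded them. That gave 6 GABAergic and 9 glycinergic cells in db/db, against 46 and 26 in WT, where another 4 cells had no UMI of any of the 3 genes and were called neither.

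The study profiled retinas of 2 genotypes at 13 weeks of age with the droplet-based 10x Genomics 3′ chemistry. The db/db mice carried the genotype C57BLKS-Leprdb/db (BKS_DB in the labels), in which both copies of the leptin receptor gene Lepr are mutated, and served as a model of type 2 diabetes. The WT mice carried C57BLKS-Leprwt/wt (BKS_WT, also given as m/m). Both groups shared the C57BLKS background and received no treatment, and each genotype is 1 library made from 2 mice, with no map from cells to mice used here. No test between genotypes was therefore possible, no difference has a replicate check, and genotype cannot be told apart from mouse, dissociation or library. All intervals are 95% intervals and cover counting error only.

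Amacrine cells receive input from bipolar cells and inhibit bipolar, ganglion and other amacrine cells in the inner plexiform layer. GABAergic types make their transmitter with the glutamate decarboxylases Gad1 and Gad2 and often spread wide processes, while most glycinergic types have narrow fields and take up glycine through the transporter Slc6a9. The glycinergic AII type carries rod signals into the cone pathway through gap junctions, and Pax6 together with the AP-2 factors Tfap2a and Tfap2b directs amacrine development.

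Because AP-2 factors mark these cells, and because groups of genes followed the GABAergic and glycinergic classes below, 5 upstream windows are shown: Pax6 for all amacrine cells, Pou3f3 and Pcp4 for genes higher in GABAergic cells, and Prox1 and Mapk12 for genes higher in glycinergic cells. Each window holds the 250 bases before a RefSeq transcription start on the GRCm38.p6 assembly, 5′ to 3′ on the strand of the gene, and none of the 5 overlaps an exon of the GENCODE M21 annotation. They lie at chr2:105668646-105668895 on the plus strand (Pax6), chr1:42695518-42695767 on the plus strand (Pou3f3), chr16:96467356-96467605 on the plus strand (Pcp4), chr1:190170828-190171077 on the minus strand (Prox1) and chr15:89140704-89140953 on the minus strand (Mapk12). Capitals mark matches to the palindromic AP-2 pattern GCCNNNGGC, which reads the same on both strands.
Pax6: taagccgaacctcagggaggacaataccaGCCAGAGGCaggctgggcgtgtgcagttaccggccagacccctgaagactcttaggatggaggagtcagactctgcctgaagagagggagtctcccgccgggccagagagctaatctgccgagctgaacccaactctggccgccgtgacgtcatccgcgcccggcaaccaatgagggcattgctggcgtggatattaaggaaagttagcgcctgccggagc
Pou3f3: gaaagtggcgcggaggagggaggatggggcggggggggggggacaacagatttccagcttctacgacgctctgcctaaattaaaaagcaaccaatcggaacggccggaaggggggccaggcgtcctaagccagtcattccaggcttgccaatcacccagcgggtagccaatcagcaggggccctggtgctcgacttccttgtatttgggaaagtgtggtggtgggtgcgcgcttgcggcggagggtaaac
Pcp4: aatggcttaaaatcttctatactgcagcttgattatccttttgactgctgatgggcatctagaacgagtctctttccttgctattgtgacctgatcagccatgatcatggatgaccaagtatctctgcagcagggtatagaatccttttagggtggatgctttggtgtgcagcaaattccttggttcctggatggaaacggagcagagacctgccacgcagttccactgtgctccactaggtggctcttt
Prox1: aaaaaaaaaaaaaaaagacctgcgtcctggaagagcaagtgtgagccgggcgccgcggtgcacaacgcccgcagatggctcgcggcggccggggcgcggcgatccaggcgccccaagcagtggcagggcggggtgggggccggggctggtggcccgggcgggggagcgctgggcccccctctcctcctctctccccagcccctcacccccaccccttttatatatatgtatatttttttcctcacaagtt
Mapk12: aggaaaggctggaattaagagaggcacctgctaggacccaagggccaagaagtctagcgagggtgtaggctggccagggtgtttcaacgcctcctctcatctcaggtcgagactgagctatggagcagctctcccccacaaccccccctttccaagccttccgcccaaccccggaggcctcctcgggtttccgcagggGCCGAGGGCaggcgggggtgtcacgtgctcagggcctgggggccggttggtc
The Pax6 window held 1 match, starting at -221 from the transcription start, and the Mapk12 window held 1 match starting at -52. The other 3 windows held none. Among windows not shown, that of Gad2 held 2 matches, and a second Pax6 window and those of Gad1, Slc6a9, Slc32a1, Tfap2a and Tfap2b held none. The 5 windows are a selection, so nothing is read from how many of them held a match. Of 32851 RefSeq windows of this length, 4509 (13.7%) held at least 1 match. These are descriptions of letters and not binding sites.

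Depth and cell quality were as follows. The 15 db/db cells held 94149 UMIs and the 76 WT cells 554691, so the counting intervals below are set mainly by the db/db cells. Per cell the median was 6397 UMIs in db/db (925 to 10902) and 6449 in WT (718 to 30911), against medians of 2049 and 2306 in the other kept cells of the db/db and WT libraries. Mitochondrial genes gave a median 3.93% of UMIs in db/db amacrine cells and 3.19% in WT ones. The libraries shared 26 barcodes, none of them in an amacrine cell. Lepr itself, the mutated gene, had 0 UMIs in the amacrine cells of either library and 6 UMIs in the other cells of each, and 3′ tags do not read the db mutation, so the genotype labels were not checked by it.

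The marker check set most cells apart from the other kept cells, which are mostly photoreceptors, with exceptions. Snhg11, a long noncoding RNA of retinal neurons that was not used in choosing cells, had a UMI in 14 of 15 db/db cells (93.3%) and 72 of 76 WT cells (94.7%), with 360 and 2038 UMIs. In the other kept cells it was found in 2.69% of the db/db library and 5.98% of the WT library. Pax6, the other marker outside the rule, was found in 15 of 15 and 69 of 76 amacrine cells, against 2.36% and 3.85% of the other cells. After thinning every cell to 1500 UMIs, which left 13 db/db and 68 WT amacrine cells, Snhg11 was present in 100% and 94.1% of them and in 2.06% and 4.20% of the other thinned cells. The 3 WT cells with horizontal cell genes described below held 27, 31 and 63 UMIs of Snhg11 and 4, 2 and 6 of Pax6. These 2 markers therefore do not part amacrine from horizontal cells. The 8 ganglion cell markers summed to 223 CPM (UMIs per 1000000 UMIs of the group) in db/db amacrine cells and 135 CPM in WT ones, against 34.2 and 31.6 CPM in the other cells. Of these, Slc17a6, Pou4f1 and Pou4f2 were at 0 in both libraries, while Thy1, a surface protein of many neurons, had 127 and 52.3 CPM in amacrine cells of db/db and WT and 1.26 and 2.20 CPM in the other cells. The 8 Müller glia markers summed to 1614 CPM in db/db and 1296 CPM in WT amacrine cells, against 996 and 1408 CPM in the other cells. Of these, Dkk3 had 1073 and 723 CPM in amacrine cells of db/db and WT, against 56.2 and 97.5 CPM in the other cells. The 7 vascular markers summed to 191 and 133 CPM, against 49.1 and 74.1 CPM. Of their 18 UMIs in db/db and 74 in WT amacrine cells, Kdr gave 13 and 42 and Rgs5 gave 5 and 28. Cldn5, Pecam1 and Kcnj8 were at 0 in the amacrine cells of both libraries. The part of ganglion cell, Müller glia or vascular RNA in the results was not tested. Of 7 microglial markers 0 UMIs were counted in db/db cells and 1 in WT cells. Rod markers, a list of 12 genes, summed to 9273 CPM in db/db amacrine cells and 13855 CPM in WT ones, against 60704 and 62688 CPM in the other cells. Values without the 25% of amacrine cells highest in rod markers are given below where they moved.

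Some cells went against the name. Of the 4 WT cells called neither, 3 carried the horizontal cell genes Onecut2 and Lhx1, with all 37 and 22 UMIs of these factors, while db/db amacrine cells had 0 of both. These 3 cells also gave 262 of the 341 UMIs of Calb1 in WT. A further 2 WT glycinergic cells had rod marker shares of 6.38% and 7.39%, at or above the median of 5.91% in the other WT cells, and the first of these held 30911 UMIs and 6540 genes. In db/db, 1 GABAergic cell of 7706 UMIs held 50 of the 73 UMIs of the bipolar marker list, among them 15 of Pcp2, 14 of Cabp5 and 8 of Gng13. Results are therefore also given without the 5 WT cells, or without that db/db cell, where this changed them.

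Close to the threshold, 5 db/db and 8 WT cells had 4 UMIs of the 8 rule genes and stayed out, and 2 db/db and 7 WT cells had exactly 5 and entered. The exclusion limits removed 2 WT cells with at least 5 such UMIs, of which one had a cone share of 1.51% and the other a Müller share of 2.24%. Most kept cells, 10056 in db/db and 9191 in WT, had 0 UMIs of the 8 genes. Just outside, at 4 UMIs, Snhg11 was present in 4 of 5 db/db cells and 5 of 8 WT cells.

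Amacrine cells made up a smaller share of the db/db library than of the WT library. They were 15 of 10963 kept cells in db/db, or 0.137% (0.0766% to 0.226%, Clopper-Pearson), and 76 of 10230 in WT, or 0.743% (0.586% to 0.929%). The ratio of the shares was 0.184 (0.0983 to 0.323), and 0.314 where 3 UMIs of the rule genes were enough, which took in 34 db/db and 101 WT cells. For GABAergic cells alone the ratio was 0.122 (0.0425 to 0.286), and for glycinergic cells 0.323 (0.133 to 0.711), and these intervals overlap. Set against cells that passed a bipolar marker rule, 398 in db/db and 565 in WT, the ratio of amacrine cells was 0.280 (0.150 to 0.492). GABAergic cells were 40.0% of the amacrine cells in db/db (16.3% to 67.7%) and 60.5% in WT (48.6% to 71.6%), again with overlapping intervals. Whether fewer amacrine cells were present or fewer were recovered in dissociation and capture was not tested.

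Both transmitter programs were almost exclusive within cells, which is partly fixed by the rule. Gad1 (chromosome 2, 70553072 to 70602014, plus strand), which makes GABA, had 2, 3, 7, 11, 13 and 14 UMIs in the 6 db/db GABAergic cells, 50 in all (exact Poisson interval 37.1 to 65.9), and 534 (490 to 581) over all 46 WT GABAergic cells. No glycinergic cell of either library had a UMI of Gad1. Gad2, the second GABA-making enzyme, had 22 and 224 UMIs in GABAergic cells of db/db and WT, against 2 and 5 UMIs in glycinergic cells. Slc6a9 (chromosome 4, 117834506 to 117875198, plus strand), the glycine transporter GlyT1, had 73 UMIs in the 9 db/db glycinergic cells (57.2 to 91.8), from 3 to 16 per cell. In WT it had 147 UMIs in 26 glycinergic cells and 1 UMI in a GABAergic cell. Slc6a9 was also found in 6.72% of other db/db cells and 6.93% of other WT cells, whereas Gad1 was found in 0.265% and 0.532% of them. The vesicular transporter Slc32a1, which loads both GABA and glycine into vesicles, was found in both classes, with 9 and 129 UMIs in GABAergic cells of db/db and WT and 15 and 37 in glycinergic ones.

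**Figure D1:**
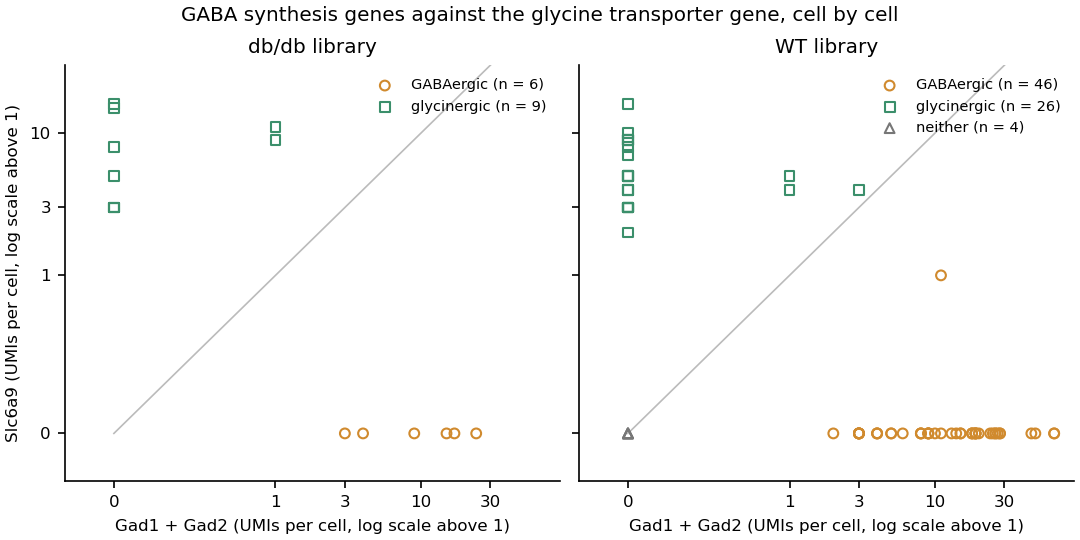
UMIs of Gad1 and Gad2 together (x axis) against UMIs of Slc6a9 (y axis) in each amacrine cell, both on axes that are logarithmic above 1, in the db/db library (left, 15 cells) and the WT library (right, 76 cells). Each open symbol is a cell and the grey line marks equal counts, so cells sit along one axis or the other; 2 db/db cells and 4 WT cells had UMIs of both.

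The heatmap of single cells shows the genes that travel with each class. Tfap2b, one of the AP-2 factors, was found in 11 of 15 db/db cells and 62 of 76 WT cells, and Tfap2a in 6 and 36. C1ql2, a secreted synapse-organising protein of the rule, had 21 and 152 UMIs in GABAergic cells of db/db and WT and 0 and 1 in glycinergic cells.

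**Figure D2:**
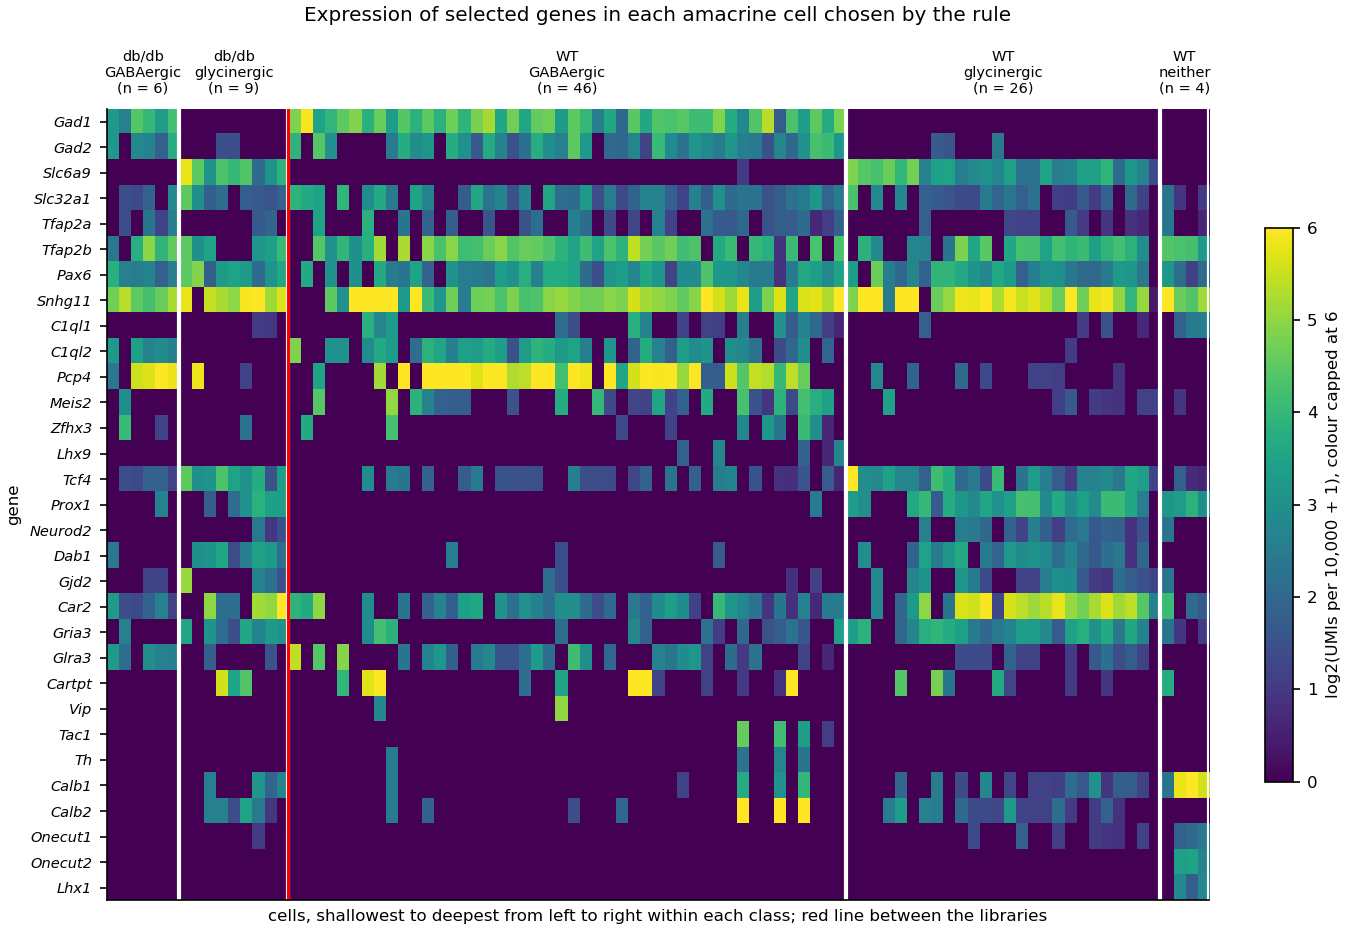
Expression in single amacrine cells (columns) as log2 of 1 plus the UMIs scaled to a fixed total per cell, as the colour bar states, with colour capped at 6, for selected genes (rows). White lines part the classes and the red line parts the db/db library (left, 15 cells) from the WT library (right, 76 cells). Gad1 fills the GABAergic columns and Slc6a9 the glycinergic ones, as the rule sets, Prox1 is present in 6 of 9 db/db and 22 of 26 WT glycinergic columns, and Onecut2 and Lhx1 appear in 3 WT cells called neither.

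GABAergic and glycinergic cells also differed in genes beyond those that defined them. Of 2666 measured genes (at least 50 UMIs over both libraries and a UMI in at least 10 of the cells), 102 (3.83%) were at least 2-fold higher in GABAergic cells in each library and 108 (4.05%) at least 2-fold lower. A group with 0 UMIs was set to 3 UMIs in a ratio, so such ratios are bounds. The counts ask for the same direction in both libraries, so nothing is read from that agreement. The classes were cut with Gad1, Gad2 and Slc6a9 in the same cells, so these values describe the classes and no test was made.

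On the GABAergic side Pcp4, a small regulator of calmodulin, had 4804 CPM in GABAergic cells and 159 CPM in glycinergic cells of db/db, and 3745 and 44.4 CPM in WT. That is 4.91 and 6.40 higher on the log2 scale. Of its 181 UMIs in db/db GABAergic cells, 69 were in the cell that passed the bipolar marker rule, so the db/db level rests in part on that cell. Pou3f3, a POU-domain transcription factor, and Pantr1, a long noncoding RNA transcribed from the opposite strand next to it, showed the same pattern. Pou3f3 had 14 UMIs in db/db and 98 in WT GABAergic cells, Pantr1 had 16 and 70, and neither had a UMI in a glycinergic cell. These 2 gene models do not overlap each other, but Pou3f3 overlaps the model Gm20646. Overlaps were looked up for only part of the other genes named in the text. Of that part, Gad1, Slc6a9, Slc32a1, Tfap2a, Pax6, Uchl1, Kcnd3, Prox1, Gjd2, Tgfb2, Fgf1, Akain1, Rnf152, Sparcl1, Atp1b1, Kcnip1, Cdc5l, Rbfox1, Tnr and Pcdh17 also overlap other gene models of the matrix. Their reads are uncertain to that extent, since no source used here says whether counting used strand. The potassium channel Kcnd3 (20 and 94 UMIs in GABAergic cells of db/db and WT), the protocadherin Pcdh9 (23 and 103), the ubiquitin hydrolase Uchl1 (12 and 101) and the adhesion molecule Alcam (12 and 58) were likewise at 0 in glycinergic cells of both libraries. Marcks, an actin-binding substrate of protein kinase C, and Olfm1, a secreted olfactomedin, each had 1 UMI in WT glycinergic cells, against 148 and 121 in WT GABAergic cells. They had 8 and 14 UMIs in db/db GABAergic cells and 0 in db/db glycinergic ones.

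On the glycinergic side the homeobox factor Prox1 had 106 CPM in GABAergic and 726 CPM in glycinergic cells of db/db, and 26.3 and 839 CPM in WT. All 4 of its UMIs in db/db GABAergic cells were in the cell that passed the bipolar marker rule, so without that cell it was at 0 there. Over both libraries it was found in 2 of 52 GABAergic cells and 28 of 35 glycinergic cells. Dab1, an adaptor of reelin signalling known as a label of AII cells, had 1 and 37 UMIs in GABAergic and glycinergic cells of db/db and 5 and 74 in WT. The phosphatase Ptprf had 0 and 45 UMIs in db/db and 9 and 97 in WT. Hao2, a peroxisomal hydroxyacid oxidase, and the kinase Mapk12 had no UMI in any GABAergic cell, and each had 9 UMIs in db/db and 45 in WT glycinergic cells. Tgfb2, a secreted growth factor, had 0 UMIs in GABAergic and 12 in glycinergic cells of db/db, and 1 and 62 in those classes of WT. The growth factor Fgf1 had 0 and 16 UMIs in GABAergic and glycinergic cells of db/db and 2 and 34 in WT. The same direction held for the sodium-calcium exchanger Slc24a2, the kinase anchor inhibitor Akain1 and the ubiquitin ligase Rnf152, with 19 to 20 UMIs in glycinergic cells of db/db and 63 to 104 in those of WT, and at most 2 and 11 UMIs in GABAergic cells of db/db and WT.

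**Figure D3:**
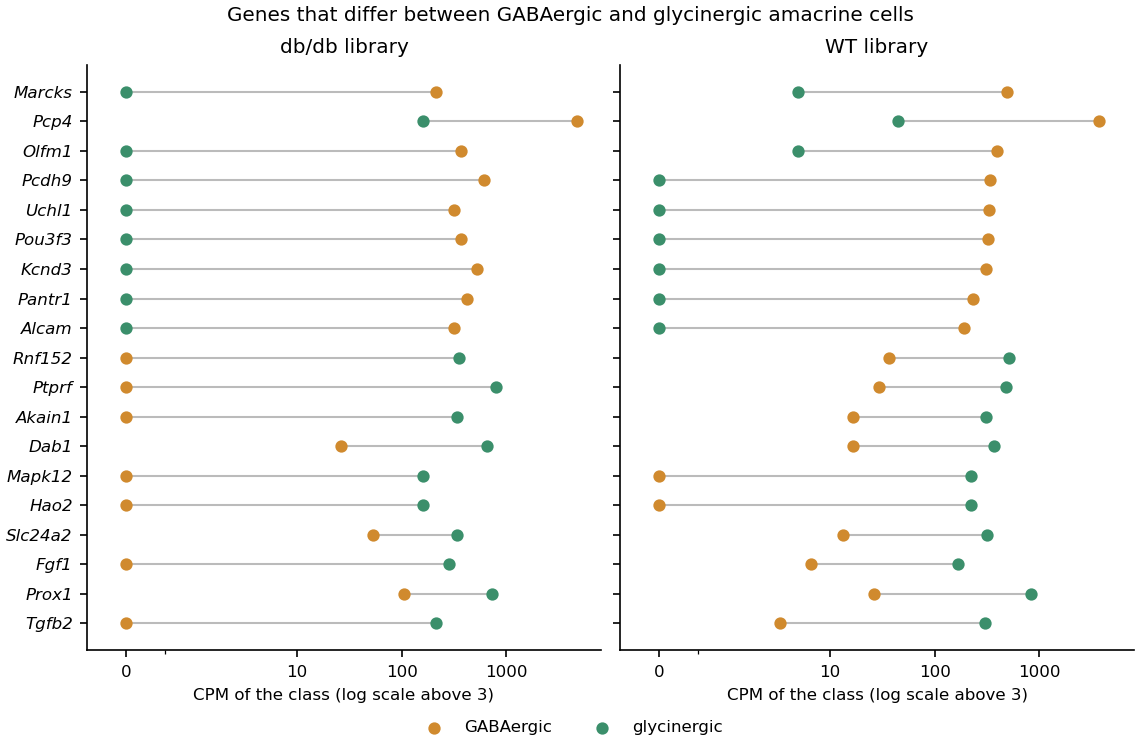
Level of the genes described for the class difference, in CPM of the class on an axis that is logarithmic above 3, in the db/db library (left) and the WT library (right). Orange points are GABAergic cells and green points glycinergic cells (6 and 9 cells in db/db, 46 and 26 in WT). The genes were chosen for the same direction in both libraries, and Pcp4 is the highest of them in GABAergic cells, at 4804 CPM in db/db and 3745 CPM in WT. In db/db, 69 of these 181 UMIs of Pcp4 were in the cell that passed the bipolar marker rule.

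Receptors and transcription factors also divided by class. The GABA receptor subunit Gabra2 had 24 and 87 UMIs in GABAergic cells of db/db and WT, against 3 and 0 in glycinergic cells, while Gabrg3 had 0 and 12 in GABAergic and 14 and 46 in glycinergic cells. Among AMPA receptor subunits, Gria3 had 3 and 53 UMIs in GABAergic and 38 and 131 in glycinergic cells of db/db and WT. Gria2 was high in both classes. The homeobox factor Meis2 lay mainly in GABAergic cells (4 and 162 UMIs, against 0 and 14 in glycinergic cells), and the E-protein Tcf4 mainly in glycinergic cells (7 and 46 UMIs in GABAergic cells of db/db and WT, against 52 and 120 in glycinergic cells). Neurod2, a bHLH factor of AII cells among others, had 7 and 39 UMIs in glycinergic cells of db/db and WT and 0 in GABAergic ones. All its glycinergic UMIs came from cells that also held Prox1, 3 in db/db and 16 in WT.

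Within the glycinergic class, Gjd2, Car2 and Prox1, genes known from AII cells, had most of their UMIs in cells with Tfap2b. For Dab1 and Calb2, also of the AII list, this was less clear in db/db. Gjd2, the gap junction protein connexin 36, was found in 4 of the 6 db/db and 17 of the 20 WT glycinergic cells with Tfap2b. Without Tfap2b it was in 0 of 3 db/db and 1 of 6 WT cells. Car2, carbonic anhydrase 2, had 150 of its 154 db/db and 562 of its 580 WT glycinergic UMIs in the cells with Tfap2b, and Prox1 had 33 of 41 and 163 of 170. By cells, Prox1 was in 4 of 6 db/db cells with Tfap2b and 2 of 3 without it. Dab1 was in 5 db/db cells with Tfap2b and 3 without (26 and 11 UMIs), and in WT in 18 and 2 (70 and 4 UMIs). Calb2 was in 3 db/db cells with Tfap2b and 3 without (7 and 12 UMIs), and in WT in 13 and 4 (24 and 7 UMIs). Gjd2 and Car2 are not specific to amacrine cells here: after thinning to 1500 UMIs, Gjd2 was in 7.69% of db/db and 10.3% of WT amacrine cells, against 8.27% and 7.44% of other cells, and Car2 in 53.8% and 50% of amacrine cells, against 41.5% and 42.9% of other cells. Cartpt, which encodes the CART neuropeptide precursor, ran the other way: it was found in 3 of 3 db/db glycinergic cells without Tfap2b (6, 16 and 27 UMIs) and in 0 of 6 with it. In WT it was found in 3 of 6 glycinergic cells without Tfap2b (26 UMIs) and in 4 of 20 with it (5 UMIs). Tfap2b is a gene of the membership rule and these cell numbers are small, so the pattern is given as a description.

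Within the GABAergic class, most cells shared C1ql2 and Pcp4, found together in 5 of 6 db/db cells and 29 of 46 WT cells. A set of 4 WT cells held Th, which encodes the dopamine-synthesising enzyme tyrosine hydroxylase, with 1, 4, 6 and 7 UMIs. All 4 also held C1ql1, Calb1, Calb2, Meis2 and Zfhx3, and 3 of them held Tac1, the substance P precursor, with 14, 21 and 23 UMIs. These 4 cells gave 316 of the 320 UMIs of the calcium-binding protein Calb2 in WT GABAergic cells, with 1, 90, 92 and 133 per cell. Of the dopamine transporters, the vesicular Slc18a2 had 0 UMIs in these 4 cells, and the plasma membrane transporter Slc6a3 had 2 UMIs over all WT amacrine cells. Cartpt had 699 UMIs in 12 WT GABAergic cells, of which 3 cells gave 119, 162 and 373. Vip, a neuropeptide of some GABAergic types, had 19 UMIs in WT, of which 1 cell gave 18. Th, Tac1, Vip and Cartpt had 0 UMIs in the 6 db/db GABAergic cells. In WT these UMIs sat in few cells, and db/db had only 6 GABAergic cells, so such cells could have been missed there. Starburst genes were nearly undetected: Chat and Slc18a3 had 0 UMIs in both libraries and Slc5a7 had 4, in 1 WT cell.

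Against all other kept cells, which are mostly photoreceptors, 672 of 2873 measured genes (23.4%) were at least 2-fold higher in amacrine cells of each library and 192 (6.68%) at least 2-fold lower. The cells were chosen by expression, so this is a description. The measured genes were also chosen by their UMIs in the amacrine cells alone. Genes with few UMIs there could not enter, so nothing is read from the balance of higher and lower genes. The 12 genes with the highest ratio in the library where it was lower were led by Hao2, at 95.6 CPM in amacrine cells and 0.0897 CPM in other cells of db/db and 81.1 and 0.0286 CPM in WT. Atp1b1, a sodium pump subunit found in 81 of the 91 cells, had 797 and 1.88 CPM in db/db and 763 and 3.37 CPM in WT. Sparcl1, a secreted matrix protein, had 404 and 1.70 CPM in db/db and 398 and 1.23 CPM in WT. The glycine receptor subunit Glra3 had 212 and 0.0598 CPM in db/db and 178 and 0.858 CPM in WT. These 12 also held Pantr1, Pou3f3, Alcam and Cartpt, described above, together with the AMPA receptor auxiliary subunit Cacng3, the potassium channel partner Kcnip1, the adhesion molecule Lingo2 and the zinc finger gene Zmat4. Their log2 ratios lay between 7.47 and 12.1 over both libraries.

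Between genotypes, most measured genes lay close together, with a median log2 ratio of db/db to WT of -0.04 over 2873 genes. In db/db cells 47 genes (1.64%) were at least 2-fold higher and 189 (6.58%) at least 2-fold lower. Most UMIs toward the minimum for a measured gene came from WT, so nothing is read from the balance of these counts. The lower count was 115 without the 5 WT cells that went against the name and 102 without the 25% of cells highest in rod markers. The 10 genes named in each direction had interval bounds farthest from 0 among 896 genes that were at least 2 times higher in amacrine cells than in other cells in the library where the amacrine level was higher, of which 36 (4.02%) were at least 2-fold higher in db/db and 54 (6.03%) lower. This limit favours genes that differ between the libraries, so nothing is read from these shares. Baz1b, Cdc5l, Denr and Tcf4 met it in db/db and not in WT, where Baz1b had 119 CPM in amacrine cells and 133 CPM in other cells, and Sept4 and Tpm3 met it in WT and not in db/db.

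Among genes higher in db/db, Nckap5, a Nck-associated protein, had 27 UMIs in db/db (287 CPM) and 50 in WT (90.1 CPM), a log2 ratio of 1.67 (0.94 to 2.37). Its level was 425 and 72.5 CPM in GABAergic cells of db/db and WT and 195 and 123 CPM in glycinergic ones. The glycinergic log2 ratio was 0.66 on 11 UMIs in db/db, and its interval, -0.51 to 1.73, takes in both directions. Dab1 had 404 CPM in db/db and 142 CPM in WT, a log2 ratio of 1.503 (0.90 to 2.08). Since glycinergic cells were 9 of 15 amacrine cells in db/db and 26 of 76 in WT, ratios of class-bound genes move with that makeup, and with both classes weighted equally the ratio of Dab1 was 0.84. Likewise Ptprf, at 478 CPM in db/db and 206 CPM in WT (log2 ratio 1.22, 0.69 to 1.73), came to 0.65 with equal weights and Tcf4, at 627 and 308 CPM (1.02, 0.57 to 1.46), came to 0.57. Baz1b, a chromatin remodelling factor, had 340 CPM in db/db and 119 CPM in WT (1.51, 0.86 to 2.14), with 2.01 in GABAergic and 0.98 in glycinergic cells. Sphkap, an anchor of protein kinase A, had 701 and 314 CPM (1.16, 0.73 to 1.58). The splicing regulator Rbfox1 (202 and 70.3 CPM, 1.52), the splicing factor Cdc5l (340 and 142 CPM, 1.25) and the translation re-initiation factor Denr (234 and 90.1 CPM, 1.37) completed the group with AC149090.1. Where 3 UMIs of the rule genes were enough, all of these but AC149090.1 were under 2-fold, with log2 ratios between 0.40 for Ptprf and 0.98 for Baz1b, and 0.74 for Nckap5, 0.82 for Dab1 and 0.44 for Sphkap, while AC149090.1 was at 1.25.

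AC149090.1 stood apart from the others in that its ratio was similar in the other cells. This gene, on the unplaced scaffold JH584304.1, had 66 UMIs in 14 of 15 db/db cells and 125 in 47 of 76 WT cells, a log2 ratio of 1.64 (1.18 to 2.08), or 1.10 without the 25% of amacrine cells highest in rod markers. In the other kept cells its log2 ratio was 1.53. For the 9 other higher genes the ratio in other cells lay between -0.86 and 0.04.

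Among genes lower in db/db, several rested on a few WT cells. Sept4, a septin, had 7 UMIs in db/db (74.4 CPM) and 280 in WT (505 CPM), a log2 ratio of -2.76 (-4.09 to -1.70), but 235 of the WT UMIs came from the 3 cells with horizontal genes, and without the 5 cells that went against the name the ratio was -0.31. Tpm3, a tropomyosin, had 3 and 121 UMIs (-2.78, -5.07 to -1.19), with 102 WT UMIs from those cells and a ratio of -0.33 without them. Calb1, the calcium-binding protein calbindin, had 191 CPM in db/db and 615 CPM in WT (-1.69, -2.46 to -1.003), and the direction turned without those cells, to 0.20. Tnr, the matrix glycoprotein tenascin R, had 4 and 125 UMIs (-2.41, -4.31 to -1.01), with 77 of the WT UMIs from the same 3 cells a ratio of -1.25 without the 5, and -0.42 with equal weight per cell. Calb2 had 202 CPM in db/db and 633 CPM in WT (-1.65, -2.40 to -0.98), and Cartpt 520 and 1321 CPM (-1.34, -1.79 to -0.93), or -0.67 without the 25% of cells highest in rod markers. For both, the WT excess lay in the few GABAergic cells described above: within glycinergic cells Calb2 had 336 CPM in db/db and 153 CPM in WT, and Cartpt 868 and 153 CPM, in the opposite direction.

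For the other genes lower in db/db, most WT UMIs lay outside the 3 cells with horizontal genes. Syt7, a calcium sensor for vesicle release, had 1 UMI in db/db and 74 UMIs in 26 WT cells, 72 of them in GABAergic cells, with a log2 ratio of -3.65 (-8.97 to -1.13). That single db/db UMI was in the cell that passed the bipolar marker rule, and without that cell the ratio, set at 3 UMIs, was at most -1.94. Stmn2, a microtubule regulator of neurites, had 2 UMIs in db/db and 78 in 23 WT cells (-2.73, -5.80 to -0.83). Of these WT UMIs 57 were in GABAergic cells, where the ratio was -1.82 (-4.90 to 0.10), and 18 in the 3 cells with horizontal genes. Pcdh17, a protocadherin, had 3 UMIs in db/db and 105 in 19 WT cells (-2.57, -4.87 to -0.98), and -4.03 without the cell that passed the bipolar marker rule. Its WT UMIs lay mainly in 12 GABAergic cells, which held 92. Chgb, the dense-core granule protein chromogranin B, was found in 15 of 15 db/db cells and 63 of 76 WT cells, at 510 and 1120 CPM (-1.13, -1.59 to -0.71), and 178 of its 621 WT UMIs came from the 3 cells with horizontal genes. With equal weight per cell its ratio was -0.49, and within glycinergic cells Chgb had 460 CPM in db/db and 454 CPM in WT. Meis2, which the list of transcription factors holds, had 4 UMIs in 1 db/db cell and 177 in 34 WT cells, a log2 ratio of -2.91 (-4.80 to -1.53), but it was found in 43.0% and 42.9% of the other kept cells.

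**Figure D4:**
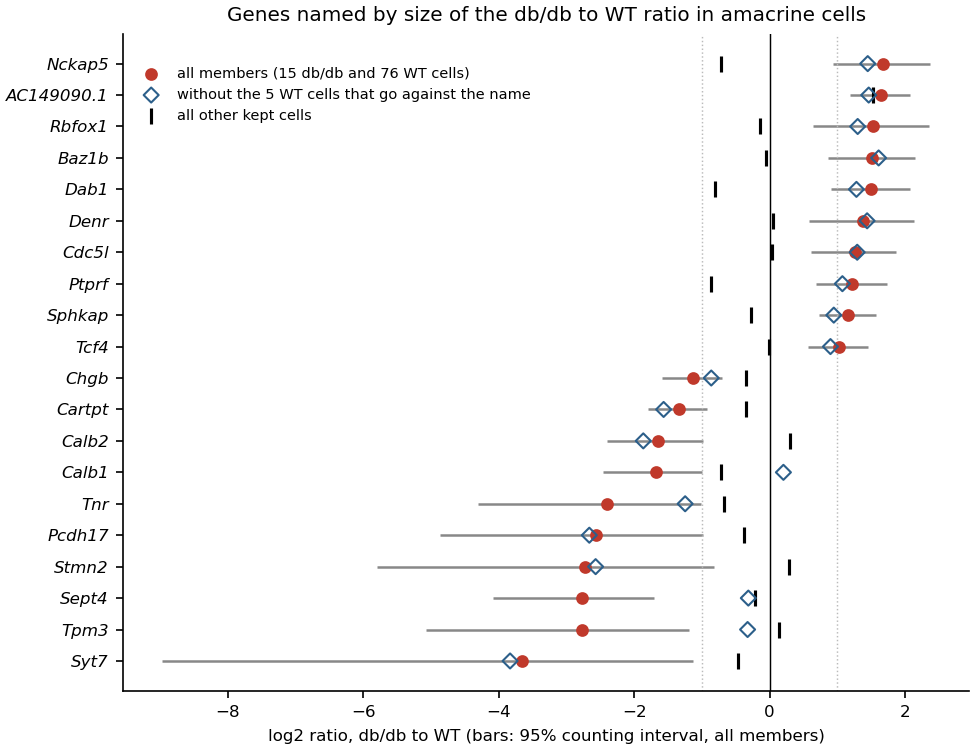
Log2 ratio of db/db to WT for the 20 genes named by size, with 95% counting intervals (grey bars) over all 15 db/db and 76 WT amacrine cells (red points), without the 5 WT cells that went against the name (blue diamonds) and in all other kept cells (black ticks). Calb1, Sept4 and Tpm3 move to 0.20, -0.31 and -0.33 without those cells, while Syt7, Stmn2 and Pcdh17 stay below -2.5, and AC149090.1 has nearly the same ratio in the other cells.

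Split by class, 36 of 1382 measured genes (2.60%) were at least 2-fold higher in db/db GABAergic cells and 131 (9.48%) lower, and 20 of 993 (2.01%) were at least 2-fold higher in db/db glycinergic cells and 85 (8.56%) lower. With 6 and 9 cells in db/db, these counts compare few cells. Most UMIs toward the minimum again came from WT, so nothing is read from the balance of higher and lower genes.

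Gene lists are set beside all 2873 measured genes, of which 1355 lay above 0, 1.64% were at least 2-fold higher and 6.58% at least 2-fold lower in db/db. Of the list for GABA and glycine supply, 7 of 9 genes were measured, with 1 at least 2-fold higher in db/db (Slc6a9, 775 CPM in db/db and 267 CPM in WT), 0 lower, and a median of -0.27, beside -0.04 over all measured genes. The rule used 4 of the 9 genes of that list, so nothing is read from it. Of the GABA receptor genes 5 of 17 were measured and all 5 lay above 0, with a median of 0.34 and none past 2-fold. Gabra2 had 287 CPM in db/db and 157 CPM in WT, Gabrg3 149 and 106 CPM, and the GABA-B receptor Gabbr1 159 and 148 CPM. Of glutamate receptor genes 5 of 24 were measured, 3 above 0, with Gria2 at 977 CPM in db/db and 759 CPM in WT and the NMDA receptor subunit Grin2b lower, at 31.9 and 97.4 CPM. The vesicle release list had 19 of 34 genes measured, 0 at least 2-fold higher and 1 lower, the priming factor Unc13b at 53.1 CPM in db/db and 155 CPM in WT, with a median of 0.13. Its most abundant members were the calcium sensor Syt1 (2496 CPM in db/db and 2506 CPM in WT), the complexin Cplx3 (1636 and 1094 CPM), the SNARE protein Snap25 (1168 and 1597 CPM) and Sncb, beta-synuclein (1370 and 1098 CPM).

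Of 30 transcription factors of amacrine cells 12 were measured, with a median of 0.01. In that list Tcf4 was at least 2-fold higher in db/db, and Meis2 and the zinc finger homeobox gene Zfhx4 (2 and 53 UMIs in db/db and WT) were lower. Of the neuropeptide processing genes 10 of 11 were measured with a median of -0.15, and Chgb alone was past 2-fold. The AII list was measured in full, 6 of 6 genes, with Dab1 higher, Calb2 lower and a median of 0.33. Of 35 adhesion and wiring genes 12 were measured with a median of -0.05, and the teneurin Tenm1 was lower, at 21.2 CPM in db/db and 123 CPM in WT. Of 30 ion channel genes 12 were measured, with Cacna2d2, a calcium channel subunit, lower (63.7 and 141 CPM). Their median was 0.23 but -0.24 with equal weight per cell.

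Of 13 protein-coding mitochondrial genes 12 were measured, 11 above 0, with a median of 0.34. Together they held 42412 CPM in db/db and 32793 CPM in WT. The median was 0.09 without the 25% of cells highest in rod markers. The share of mitochondrial UMIs is also a measure of cell quality, and its part in this result was not tested. That share differed by class, with medians of 3.74% and 5.16% in GABAergic and glycinergic cells of db/db and 2.00% and 4.46% in WT. The ratio of this list can therefore move with the class makeup, as for Dab1 above. Nuclear genes of the respiratory chain, 47 of 47 measured, had a median of 0.11, and the 53 ribosomal protein genes a median of -0.12, with none past 2-fold in either list. Of the glycolysis list 17 of 19 genes were measured with a median of -0.18, and the hexokinase Hk1 was at least 2-fold higher, at 340 CPM in db/db and 168 CPM in WT (log2 ratio 1.02, 0.39 to 1.61). Of 17 unfolded protein response genes 10 were measured, 8 above 0, with a median of 0.24 and none past 2-fold. Of 19 genes of insulin and leptin signalling 5 were measured, with a median of -0.32 and Pik3ca, a catalytic subunit of phosphoinositide 3-kinase, lower at 53.1 and 124 CPM. Of 16 immediate early genes 2 were measured, with a median of -0.90, and of these Fos had 5 UMIs in db/db and 82 in WT (-1.48, -3.14 to -0.20).

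The direction of most list medians above 0 rested on the threshold of the rule. Where 3 UMIs of the rule genes were enough, the median turned to -0.38 for GABA receptors, -0.21 for glutamate receptors, -0.15 for vesicle release, -0.46 for transcription factors, -0.31 for the AII list and -0.36 for ion channels. It turned to -0.14 for mitochondrial and -0.16 for nuclear respiratory genes and to 0.15 for insulin and leptin signalling, and stayed above 0, at 0.05, for the unfolded protein response.

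**Figure D5:**
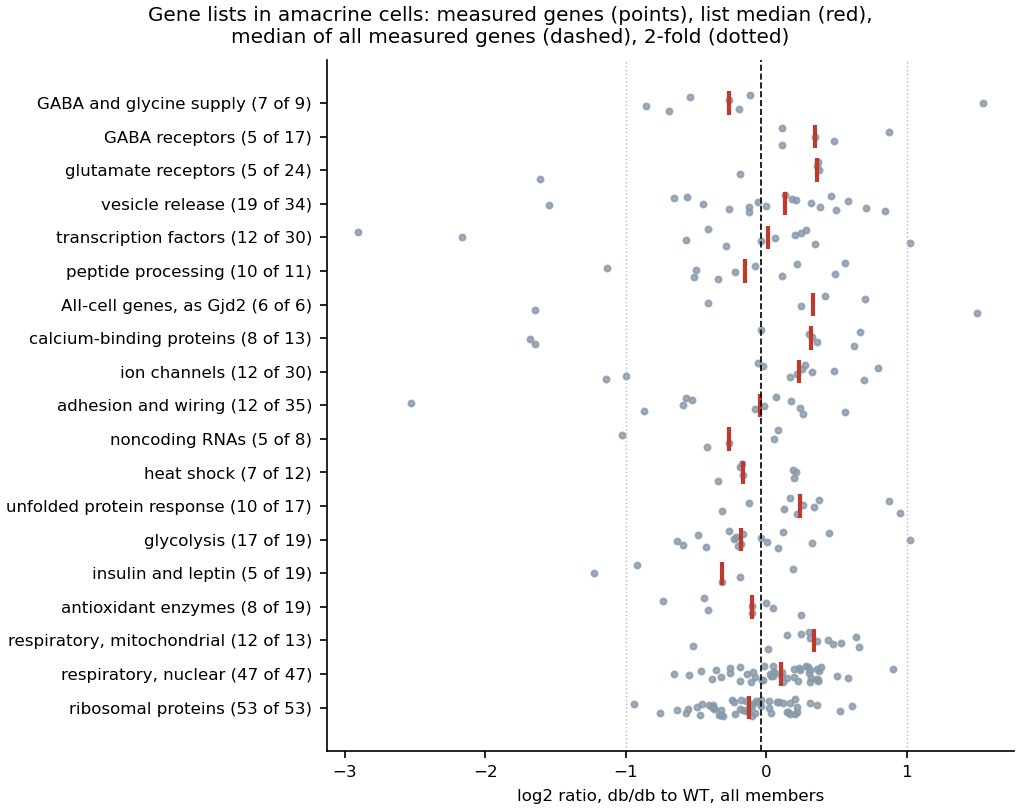
Log2 ratio of db/db to WT for the measured genes of each list (points) with the list median, over 15 db/db and 76 WT amacrine cells. The medians of the lists drawn, each with at least 5 measured genes, lie between -0.32 and 0.36, around the median of -0.04 over all 2873 measured genes. The immediate early list, with 2 measured genes and a median of -0.90, is not drawn.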

How the data were processed

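Droplet single-cell RNA sequencing gave 1 library for each genotype. The deposited values are raw UMI counts per gene and cell, made with cellranger 6.0.1 per the file headers and with Cell Ranger and mm10 per the submitters' processing notes. Annotation release, cell calling settings and use of strand are not given in the sources used here. Cells with at least 200 genes and at most 20% mitochondrial UMIs were kept, and amacrine cells were chosen by the rule in the report. The members and gene lists were chosen with earlier results of these data known. UMIs were summed over cells and scaled to 1000000 (CPM). With 1 library per genotype no test was made. Intervals at 95% are Clopper-Pearson for shares, exact Poisson for counts and exact conditional binomial for ratios. They cover counting error only. A sum of 0 was set to 3 UMIs in ratios. The ratios were also run on simulated sums drawn with counting error alone. That is the assumption of the intervals and leaves out UMIs gathered in single cells, so nothing is read from it. Measured genes had at least 50 UMIs over both libraries and a UMI in at least 10 of the cells. Genes named between genotypes were the 10 in each direction with the interval bound farthest from 0, leaving out mitochondrial, ribosomal, haemoglobin, rod, sex-linked and rule genes and unnamed models. Between classes, the 10 in each direction had to be at least 2-fold apart in both libraries. Against other cells, 12 were taken, and list members were the 4 with the most UMIs and any past 2-fold. A few genes that these rules name are not reported here. Ddit3 and Aldoa share their symbols with another gene identifier and were left out of list summaries. Scrublet in scanpy 1.11.5 marked 2 db/db cells (0.0182%) and 0 WT cells, too few for a working caller, so doublets stayed. Dropping the top 8% by doublet score, 877 cells in db/db and 818 in WT, was tried instead. Positions are from GENCODE M21, which matched 32235 of 32285 genes, and sequences from RefSeq on GRCm38.p6. Other tools were python 3.11.15, numpy 2.4.6, pandas 2.3.3, scipy 1.17.1 and matplotlib 3.10.9.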

Additional observations from a re-analysis of the deposited data

How the results depend on the processing

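The ratio of the amacrine share in db/db to WT stayed between 0.172 and 0.314 under 12 alternatives. The count of genes at least 2-fold higher in db/db, 47, became 2 after thinning to 1500 UMIs, 87 with equal weight per cell, 261 and 13 with a minimum of 20 and 100 UMIs, and 1444 with no minimum. The count of lower genes, 189, became 102 without the 25% of cells highest in rod markers, 115 without the 5 WT cells that went against the name, 21 after thinning, 690 and 39 at 20 and 100 UMIs, and 1056 with no minimum. The GABAergic share in WT was 81.1% after thinning, against 60.5%. The log2 ratio of Calb1 turned to 0.20 without the 5 cells and 0.036 with both classes weighted equally, and those of Ptprf and Rbfox1 turned to -0.61 and -0.20 after thinning. After thinning, 8 db/db and 37 WT cells met the rule, and gene ratios used the 13 and 68 amacrine cells with enough UMIs. The causes were not tested, except that a UMI minimum and thinning change the number of genes or UMIs by construction. The alternatives without the 5 cells, without the cell of the bipolar marker rule and with equal class weights were chosen after seeing the data. No paired analysis was possible because each genotype is 1 library. The 6 GABAergic and 9 glycinergic cells in db/db limit what their depth can show.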
